A study of Homo sapiens with 6 samples.

Results

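The matrix metalloproteinases MMP1, MMP2, MMP3, MMP7, MMP9, MMP10 and MMP14 and the tissue inhibitors of metalloproteinases TIMP1, TIMP2 and TIMP3 were examined in a human breast cancer cell line upon silencing of WDR5. These 10 genes are 10 of the 26334 rows of the gene table and were taken by their symbols, because MMP9 was among the genes with the largest rise in this same comparison. The choice therefore rests on the difference between shWDR5 and shLuc, and the changes of these genes are given as a description. No p-value is given for them, and which of them passed the threshold of the fit across all genes is counted only beside the share of all genes that passed. The line, MCF10DCIS.com (hereafter MCF10DCIS), is a basal-like derivative of MCF10A breast epithelial cells that grows as ductal carcinoma in situ in mice. Polyadenylated RNA was sequenced from 3 libraries of cells carrying the vector pRSI-U6-shLuc-UbiC-TagRFP-2A-Puro, whose hairpin targets luciferase (shLuc, the control), and from 3 libraries of cells carrying the same backbone with a hairpin against WDR5 (shWDR5), a core subunit of the complexes that methylate histone H3 at lysine 4. Cells of both groups grew in DMEM/F12 with 5% horse serum and were selected with 3 µg/ml puromycin. All libraries are from 1 cell line. The study describes pooled WDR5 hairpins, so the effect of a single hairpin cannot be told apart here. No source says whether the 3 libraries of a group came from separate infections, so the errors and p-values measure the spread between these libraries, which may be technical.

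Matrix metalloproteinases are zinc-dependent enzymes that cleave collagens, laminins, fibronectin and many cell-surface proteins, and most are secreted as inactive proenzymes that other proteases open. MMP14 stays in the cell membrane and, with TIMP2 as a bridge, activates pro-MMP2. TIMPs bind the active zinc site and block it, so net proteolysis depends on enzyme, activation and inhibitor together. In breast tissue these proteins take part in gland remodelling and in the passage of tumor cells through the basement membrane. The libraries measure mRNA only and hold no information on secretion, activation or activity. In bulk RNA, fewer cells that express a gene and less RNA per cell cannot be told apart.

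All 7 enzymes hold a stretch of 3 histidine codons that encodes the zinc-binding site. It is shown because it is the shared catalytic feature that the choice of genes did not use, and because it displays how alike the coding sequences, to which reads are assigned, can be. The sequences are from the GRCh38 genome with the GENCODE v29 annotation, on the coding strand, 33 bases each, with the histidine codons in capitals.
MMP1, exon 5, chr11:102795549-102795581, minus strand: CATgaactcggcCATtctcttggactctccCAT
MMP3, exon 5, chr11:102840535-102840567, minus strand: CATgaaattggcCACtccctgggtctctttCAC
MMP10, exon 5, chr11:102776718-102776750, minus strand: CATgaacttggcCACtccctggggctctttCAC
MMP7, exon 5, chr11:102523343-102523375, minus strand: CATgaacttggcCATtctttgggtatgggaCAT
MMP2, exon 8, chr16:55491827-55491859, plus strand: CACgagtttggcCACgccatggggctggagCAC
MMP9, exon 8, chr20:46012453-46012485, plus strand: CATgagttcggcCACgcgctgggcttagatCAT
MMP14, exon 5, chr14:22843283-22843315, plus strand: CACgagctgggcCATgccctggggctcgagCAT
Over the whole coding sequence MMP3 and MMP10 were 85% identical across 1431 aligned bases, with a longest identical run of 96 bases. Every other pair among the 7 enzymes, and among the 3 inhibitors, was at most 65.5% identical, with no identical run over 23 bases. Reads of MMP3 and MMP10 could therefore be split between the pair, and the values of these 2 genes are less certain than the others.

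WDR5 itself was at 16.5, 15.2 and 16.1 RPKM (reads per kilobase of exon, scaled to the size of the library) in the shLuc libraries and at 7.34, 7.65 and 6.52 RPKM in the shWDR5 libraries, a 2.22-fold lower level (log2 fold change −1.15, SE 0.07, adjusted p = 8.67e-07 by edgeR's quasi-likelihood test with Benjamini-Hochberg adjustment), so the labels hold. The libraries held 38218108 to 57640167 assigned reads. The first principal component held 79.2% of the variance and separated the groups. Of 16117 genes with enough reads, 9112 passed an adjusted p of 0.05, which is 56.5%, with 26.6% of all tested genes higher in shWDR5 and 29.9% lower, and in 62.3% the groups did not overlap. Markers of basal breast epithelium (8 genes, among them the keratins KRT5, KRT14 and KRT17) were all expressed, and their summed level went from 2489–2745 RPKM in shLuc to 4211–4838 RPKM in shWDR5, with CDH1 and EPCAM lower and the other 6 higher. Fibroblast markers were near absence, with 7 of 8 below 1 RPKM in every library, LUM listed at 0, and sums of 3.72–4.05 RPKM in shLuc and 2.54–3.08 RPKM in shWDR5. All 4 neutrophil markers were below 1 RPKM in every library, with sums of 0.0252–0.0569 RPKM in shLuc and 0.00788–0.0156 RPKM in shWDR5. Of the 6 leukocyte markers, 4 were below 1 RPKM, CD163 was listed at 0, and the sums were 7.08–8.28 RPKM in shLuc and 6.93–8.32 RPKM in shWDR5, most of it from CD68 (means 6.39 and 5.97 RPKM). Within that sum ITGAM went from a mean of 0.123 to 0.494 RPKM (log2 fold change 1.97, adjusted p = 0.000177 by edgeR), CSF1R from 0.44 to 0.597 RPKM (0.42, adjusted p = 0.0261 by edgeR) and CD14 from 0.905 to 0.439 RPKM (−1.05, adjusted p = 0.000342 by edgeR), while PTPRC, the pan-leukocyte marker, was at most 0.0204 RPKM in any library. Endothelial markers summed to 1.75–1.87 RPKM in shLuc and 1.15–1.299 RPKM in shWDR5, with 3 of 4 below 1 RPKM. The part that these shifts in epithelial and leukocyte markers have in the changes of the metalloproteinases was not tested.

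Of the 10 genes, 9 had enough reads for the fit. Counted by the same rule, 8 of these 9 passed: MMP2, MMP7, MMP9 and TIMP1 were higher in shWDR5, and MMP1, MMP10, TIMP2 and TIMP3 were lower. MMP14 did not pass, and MMP3 was too low to be fitted. In the same 8 of the 9 fitted genes the 3 libraries of a group did not overlap with the 3 of the other. MMP3, not fitted and not counted here, was at 0.0775 to 0.0846 RPKM in shLuc and 0.09445 to 0.1206 RPKM in shWDR5, from few reads. Because the genes were picked on this contrast, nothing is read from either count of 8 beside the 56.5% and 62.3% of all tested genes. The median log2 fold change was 0.14 over the 9 fitted genes, 0.32 over the 6 fitted enzymes and −0.56 over the 3 inhibitors, beside −0.01 over all tested genes.

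**Figure D1:**
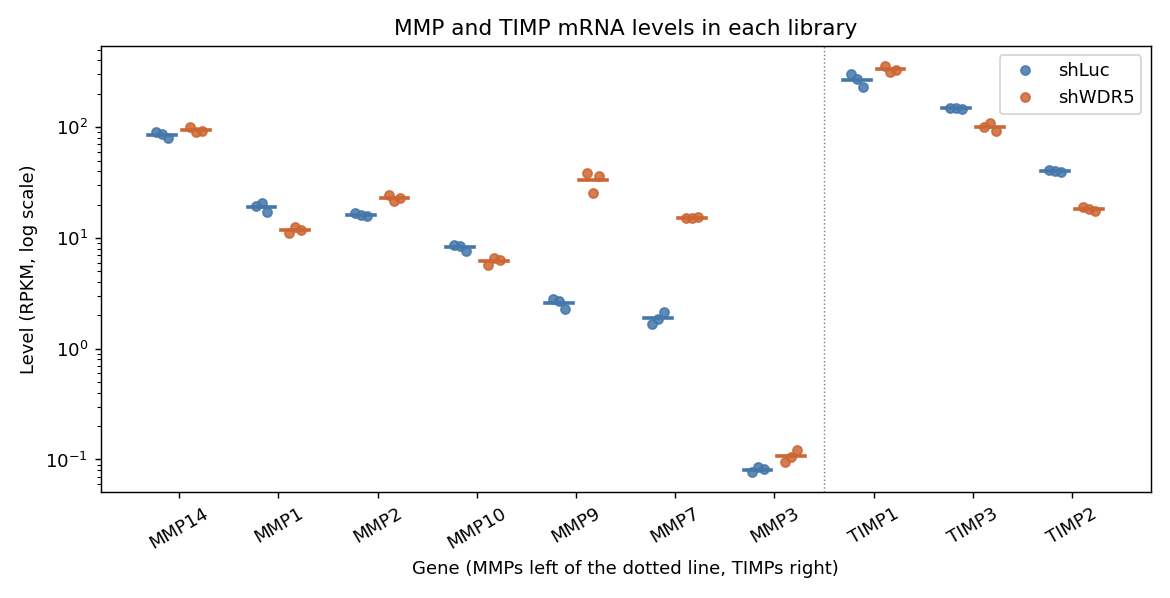
Level of each of the 10 genes in RPKM (vertical axis, log scale) in the 3 shLuc libraries (blue) and the 3 shWDR5 libraries (orange), with a short line at each group mean and the TIMPs right of the dotted line. MMP9 and MMP7 show the widest gaps, from below 3 RPKM in shLuc to above 14 RPKM in shWDR5, whereas the MMP14 points of both groups interleave.

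The gelatinases MMP9 and MMP2 cleave denatured collagen and the type IV collagen of the basement membrane. MMP9 (chr20:44637547-44645200 of hg19, plus strand, 13 exon blocks) was at 2.81, 2.70 and 2.26 RPKM in shLuc libraries 1 to 3 and at 38.2, 25.4 and 36.1 RPKM in shWDR5 libraries 1 to 3. Every shWDR5 library stood far above every shLuc library, and shWDR5 library 2 was the lowest of its group. The means were 2.59 ± 0.291 and 33.3 ± 6.89 RPKM (SD, n = 3 each), a 12.8-fold difference (log2 fold change 3.68, SE 0.16), rank 17 from the top of 16117 genes. MMP9 had the widest relative spread of the 10 genes in shWDR5, a coefficient of variation of 20.7%, beside a median of 5.65% for the 11985 genes over 1 RPKM. Without shWDR5 library 2 the log2 fold change was 3.84. MMP2 (chr16:55512742-55540603 of hg19, plus strand, 17 exon blocks) was at 16.8, 16.0 and 15.7 RPKM in shLuc and at 24.3, 21.4 and 23.1 RPKM in shWDR5. It was 1.42-fold higher in shWDR5 (log2 fold change 0.51, SE 0.06), without overlap. In the control cells MMP2 mRNA was thus several times as abundant as MMP9 mRNA, and in shWDR5 the order was the opposite.

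MMP7, or matrilysin, is a small enzyme without the hemopexin domain of the others, made mainly by epithelial cells. The gene (chr11:102391239-102401478 of hg19, minus strand, 6 exon blocks) was at 1.66, 1.87 and 2.13 RPKM in shLuc and at 14.99, 15.04 and 15.43 RPKM in shWDR5. The 3 silenced libraries were nearly alike (15.2 ± 0.241 RPKM, SD, n = 3) and far above the control libraries (1.89 ± 0.232 RPKM, SD, n = 3). The difference was 8.07-fold (log2 fold change 3.01, SE 0.10), rank 40 from the top. The read counts behind it were 92, 81 and 96 in shLuc and 777, 957 and 783 in shWDR5.

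MMP1 is the interstitial collagenase, which makes the first cut in fibrillar collagen. The gene (chr11:102660641-102668966 of hg19, minus strand, 10 exon blocks) was at 19.4, 20.6 and 17 RPKM in shLuc and at 11.01, 12.6 and 11.9 RPKM in shWDR5. All shWDR5 libraries lay below all shLuc libraries, 1.61-fold lower (log2 fold change −0.68, SE 0.08). MMP1 shares 150 exon bases with WTAPP1 on the opposite strand, which had 13 reads over the 6 libraries. The stromelysins MMP3 and MMP10 cleave laminin, fibronectin and proteoglycans and can activate other pro-MMPs. MMP10 (chr11:102641233-102651359 of hg19, minus strand, 10 exon blocks) was at 8.70, 8.41 and 7.58 RPKM in shLuc and at 5.68, 6.56 and 6.28 RPKM in shWDR5. It was 1.33-fold lower in shWDR5 (log2 fold change −0.41, SE 0.08), and the groups did not overlap. MMP3 (chr11:102706528-102714342 of hg19, minus strand, 10 exon blocks) had 7, 6 and 6 reads in shLuc and 8, 11 and 10 reads in shWDR5, or 0.0811 ± 0.00358 and 0.107 ± 0.0131 RPKM (SD, n = 3). A difference in MMP3 was not detectable at this depth, and with 85% identity to MMP10 a few of its reads may be misplaced.

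MMP14, the membrane-type enzyme that activates pro-MMP2, was the most abundant of the 7 proteinase mRNAs. The gene (chr14:23305742-23316808 of hg19, plus strand, 10 exon blocks) was at 90.66, 86.46 and 79.5 RPKM in shLuc and at 99.98, 90.05 and 93.27 RPKM in shWDR5. The groups overlapped, since shWDR5 library 2 lay below shLuc library 1, and the log2 fold change was 0.14 (SE 0.06). Without shLuc library 1 the log2 fold change was 0.20.

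The inhibitors moved in opposite directions. TIMP1 (chrX:47441690-47446190 of hg19, plus strand, 6 exon blocks) also binds pro-MMP9 besides blocking active enzymes, and was at 299.6, 271.5 and 231.8 RPKM in shLuc and at 355, 314 and 328 RPKM in shWDR5. It was 1.24-fold higher in shWDR5 (log2 fold change 0.31, SE 0.09), and the gap between the highest control and the lowest silenced library was small beside the spread of the controls (SD 34.1 RPKM). TIMP2 (chr17:76849059-76921472 of hg19, minus strand, 5 exon blocks) is the inhibitor that MMP14 uses to capture pro-MMP2, and was at 40.7, 40.3 and 39.3 RPKM in shLuc and at 18.9, 18.2 and 17.5 RPKM in shWDR5. This was a 2.21-fold lower level with tight replicates in both groups (log2 fold change −1.14, SE 0.05). TIMP3 (chr22:33196802-33259028 of hg19, plus strand, 5 exon blocks) encodes an inhibitor that binds to the matrix and also blocks ADAM proteases, and was at 150.2, 148.8 and 144.5 RPKM in shLuc and at 99.5, 109 and 92.4 RPKM in shWDR5, 1.47-fold lower (log2 fold change −0.56, SE 0.06). TIMP1 and TIMP3 lie within introns of SYN1 and SYN3 on the opposite strand, and no exon bases are shared, with 8 and 153 reads for these neighbours in all libraries together. The span of TIMP2 overlaps that of CEP295NL on the same strand, also without shared exon bases, and CEP295NL had 76 reads in all libraries together.

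**Figure D2:**
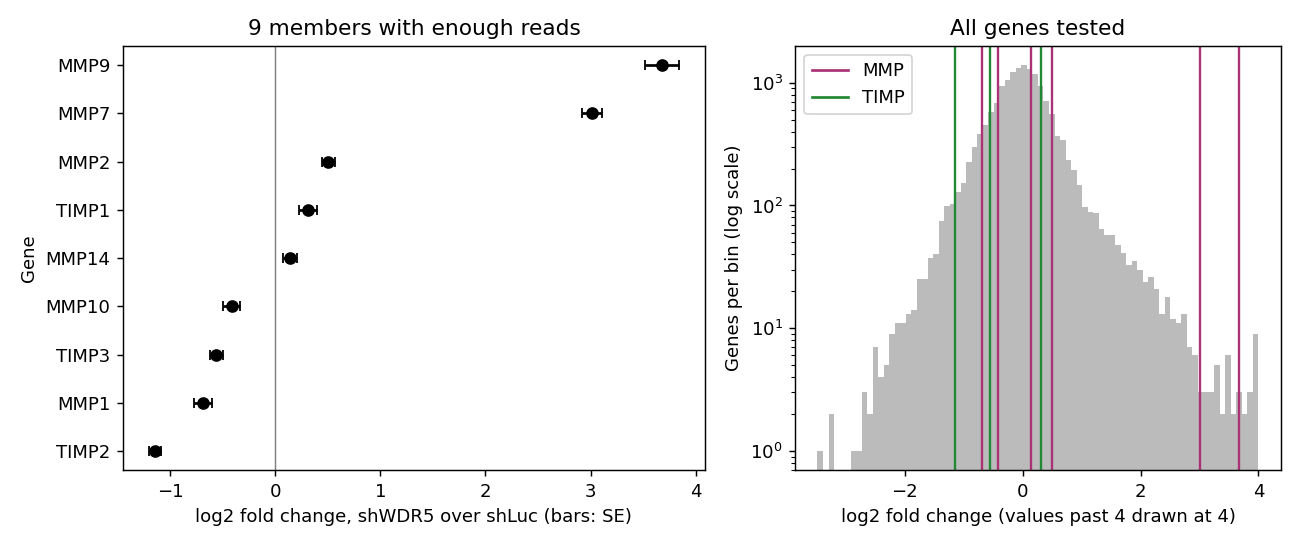
Left, log2 fold change of shWDR5 over shLuc for the 9 genes that could be fitted, with bars of 1 SE. Right, the number of genes per bin of log2 fold change for all 16117 tested genes (log scale, values past 4 drawn at 4), with the 6 enzymes and 3 inhibitors as lines. MMP9 (3.68) and MMP7 (3.01) lie in the thin upper tail, the other 7 between −1.14 and 0.51.

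The order of the levels per exon length differed between the groups. In shLuc it ran from TIMP1 (268 RPKM) through TIMP3 (148), MMP14 (85.5), TIMP2 (40.1), MMP1 (19.0), MMP2 (16.2), MMP10 (8.23), MMP9 (2.59) and MMP7 (1.89) to MMP3 (0.0811), and no neighbours in this order had overlapping ranges. In shWDR5 it ran from TIMP1 (332 RPKM) through TIMP3 (100.3), MMP14 (94.4), MMP9 (33.3), MMP2 (23.0), TIMP2 (18.2), MMP7 (15.2), MMP1 (11.8) and MMP10 (6.17) to MMP3 (0.107). There the ranges of TIMP3 and MMP14 overlapped, and no other neighbours did. MMP9 stood at position 8 in shLuc and 4 in shWDR5, and TIMP2 at position 4 in shLuc and 6 in shWDR5.

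The summed level of the 7 enzymes was 133.5 ± 8.25 RPKM in shLuc and 183.9 ± 11.7 RPKM in shWDR5, and that of the 3 inhibitors was 455.5 ± 37.7 and 450.8 ± 19.6 RPKM (SD, n = 3 each). The ratio of the enzyme sum to the inhibitor sum was 0.286, 0.296 and 0.299 in the shLuc libraries and 0.411, 0.388 and 0.425 in the shWDR5 libraries. The mean ratio was 1.39-fold higher in shWDR5, which largely restates the rise of MMP9 for which the genes were chosen. Without MMP9 the ratio was 0.280, 0.290 and 0.294 in shLuc and 0.330, 0.330 and 0.343 in shWDR5, 1.16-fold higher. Without MMP9 and MMP7 it was 0.277, 0.286 and 0.288 in shLuc and 0.298, 0.296 and 0.308 in shWDR5, 1.06-fold higher. The inhibitor mRNAs exceeded the enzyme mRNAs in every library. MMP14 made up 64.1% of the enzyme sum in shLuc and 51.4% in shWDR5. MMP9 went from 1.94% to 18.0% of that sum and MMP7 from 1.42% to 8.26%, while MMP1 went from 14.2% to 6.47% and MMP10 from 6.16% to 3.38%. MMP2 kept a share of 12.1% and 12.5%. Among the inhibitors, TIMP1 went from 58.6% to 73.7% of the sum, TIMP3 from 32.6% to 22.3% and TIMP2 from 8.83% to 4.03%. The size of the ratio also depended on the most abundant members, at 1.88-fold higher in shWDR5 without MMP14 and 2.20-fold higher without TIMP1.

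**Figure D3:**
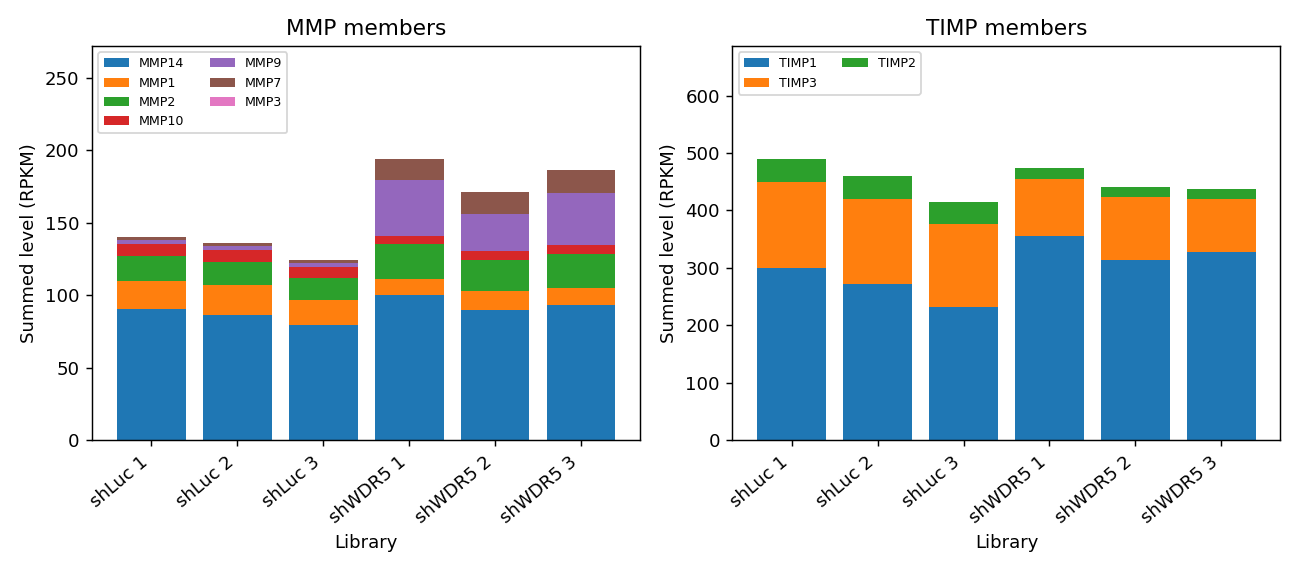
Summed RPKM (vertical axis, from 0) of the 7 enzymes (left) and the 3 inhibitors (right) in each of the 6 libraries, stacked by gene. The MMP9 and MMP7 segments are slivers in shLuc and make up 18.0% and 8.26% of the enzyme sum in shWDR5, while the heights of the inhibitor bars overlap between the groups and the TIMP1 segment is larger in shWDR5.

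MMP7, MMP10, MMP1 and MMP3 lie in 1 gene cluster on chromosome 11 that spans 435.2 kb (chr11:102391239-102826463 of hg19) and holds 9 MMP genes on the minus strand. Neighbours in the cluster moved in different directions. In the order of the chromosome, MMP7 was higher, MMP20 and MMP27 had 1 read or none, MMP8 was higher, MMP10 and MMP1 were lower, MMP3 and MMP12 were too low to be fitted, and MMP13 was higher. MMP8, the neutrophil collagenase, had 5, 1 and 0 reads in shLuc and 36, 43 and 29 reads in shWDR5 (log2 fold change 3.89, SE 0.48, adjusted p = 5.72e-05 by edgeR's quasi-likelihood test with Benjamini-Hochberg adjustment). Without shLuc library 1, which held 5 of the 6 control reads, its log2 fold change was 5.58. MMP13, a collagenase, had 3, 5 and 7 reads in shLuc and 13, 15 and 20 in shWDR5 (log2 fold change 1.45, SE 0.42, adjusted p = 0.0128 by the same edgeR test), and without shLuc library 1 it no longer passed (log2 fold change 1.10, adjusted p = 0.0548). Both stayed below 0.3 RPKM in every library. Each had fewer than 10 reads in every shLuc library and entered the fit only through shWDR5, where it was higher. A fall could hardly have been found, so the p-values of MMP8 and MMP13 are no support for a rise. Beside the cluster, TMEM123 was at a log2 fold change of −0.22 (SE 0.15, adjusted p = 0.236 by edgeR), which passed without shLuc library 1 (−0.34, adjusted p = 0.0435 by edgeR) and with the replicate number as a block (adjusted p = 0.00896 by edgeR). DCUN1D5 rose by 0.25 (SE 0.07, adjusted p = 0.00893 by edgeR), which was lost without shWDR5 library 2 (0.20, adjusted p = 0.0508 by edgeR).

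Promoter sequences were found in the RefSeq promoter table (GRCh38.p14) for 5 of the 10 genes, MMP7, MMP10, MMP14, TIMP1 and TIMP3. MMP1, MMP2, MMP3, MMP9 and TIMP2 had no entry. The 100 bases before the start of MMP7 and MMP10 are shown because these members of the cluster changed in opposite directions. Those of MMP8 are added because it lies between them, and its own change has no support from its p-value. Capitals mark an AP-1 site (TGACTCA, either strand) and a TATA box (TATAAA, sense strand).
MMP7, chr11:102530748-102530847, minus strand: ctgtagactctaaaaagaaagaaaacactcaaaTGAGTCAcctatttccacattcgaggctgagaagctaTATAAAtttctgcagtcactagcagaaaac
MMP8, chr11:102724955-102725054, minus strand: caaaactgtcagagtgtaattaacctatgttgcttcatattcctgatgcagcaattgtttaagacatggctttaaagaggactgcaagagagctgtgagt
MMP10, chr11:102780629-102780728, minus strand: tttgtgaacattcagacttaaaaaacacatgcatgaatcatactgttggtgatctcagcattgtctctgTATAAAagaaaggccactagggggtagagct
The TATA letters begin at −30 in MMP7 and −31 in MMP10 counted from the start, and at −110 in MMP8, outside the stretch shown. The exact letters of the AP-1 site were found in MMP7 at −67 and in neither MMP8 nor MMP10. At −67 MMP10 holds tgaatca, which differs by 1 base from the TGAGTCA of MMP7, and only exact matches were sought. Whether the site has a part in the changes was not tested. In the 250 bases before the start, an AP-1 site was present in 4.2% of all 35116 promoters in the table, a TATA box in 6.8%, a GC box (GGGCGG, either strand) in 42.6% and the NF-kB consensus in 5.21%. Among the 16503 promoters of tested genes the shares were 3.37%, 4.18%, 59.75% and 5.97% in the same order. None of the 5 member promoters held the NF-kB consensus. The GC content was 33.6% in MMP7 and 34.4% in MMP10, and 56.8% in MMP14, 64.8% in TIMP1 and 72.4% in TIMP3, beside a median of 58% over all promoters. MMP14 held 1 GC box, TIMP1 2 and TIMP3 5, and MMP7 and MMP10 none. The matches in these 5 promoters do not overlap each other, and a match is a description of letters, not of a bound site.

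The other genes of the pathway were taken from 9 lists of 115 genes in all, of which 89 were tested and 63 passed, 36 higher and 27 lower in shWDR5, beside 56.5% of all tested genes. The lists were written with earlier results of these data known, and MMP8, MMP13, MMP19 and TNF entered the fit only through 1 group. Nothing is therefore read from the 63 beside this share. Every p-value below is from edgeR's quasi-likelihood test with Benjamini-Hochberg adjustment over all 16117 genes. Of 17 other MMPs, 10 were tested, 5 rose and 3 fell, with a median log2 fold change of 0.47. MMP8, MMP13 and MMP19 are in these counts and entered the fit only through the group where they were higher. MMP28, or epilysin, an epithelial enzyme, rose from 5.18, 4.63 and 4.58 RPKM to 14.9, 11.3 and 13.99 RPKM (log2 fold change 1.48, SE 0.11, adjusted p = 1.66e-06 by edgeR). MMP19 fell by 1.47 on the log2 scale (SE 0.36, adjusted p = 0.00457 by edgeR), at levels no higher than 0.110 RPKM. It had 12, 12 and 15 reads in shLuc and 5, 7 and 4 in shWDR5. Only its shLuc reads took it past the filter, so its p-value is no support for a fall. MMP15 and MMP17, membrane-type enzymes, fell by 0.49 and 0.35 on the log2 scale, and the groups overlapped for MMP17. MMP16, another of that type, rose by 0.77 at no more than 0.7135 RPKM, and MMP25 rose by 0.80. MMP11 and MMP24 did not pass, at −0.02 and 0.18.

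Of 6 other MMP inhibitors, 4 were tested, 2 rose and none fell (median 0.28). A2M, alpha-2-macroglobulin, a broad protease trap, rose from 0.370, 0.344 and 0.378 RPKM to 1.63, 1.49 and 1.68 RPKM (log2 fold change 2.13, SE 0.10, adjusted p = 1.82e-07 by edgeR). THBS1, thrombospondin, which binds MMPs and activates latent TGFβ, rose by 0.33 (SE 0.05, adjusted p = 0.000303 by edgeR). RECK, a membrane-anchored inhibitor, was at −0.03 (SE 0.08, adjusted p = 0.759 by edgeR). Of 9 activators of proenzymes, 6 were tested, 1 rose and 2 fell (median −0.14). PLAU, the urokinase that generates plasmin, rose by 0.30 (SE 0.07, adjusted p = 0.00343 by edgeR). ST14 (matriptase) and PCSK5, a proprotein convertase, fell by 0.28 and 0.25 on the log2 scale, and PCSK5 was lost without shLuc library 3 (−0.20, adjusted p = 0.0524 by edgeR). FURIN, the convertase that cuts the propeptide of MMP14, was at −0.13 (SE 0.07, adjusted p = 0.13 by edgeR), and it passed without shLuc library 3 or without shWDR5 library 1 (−0.19 and −0.20, adjusted p = 0.0497 and 0.0354 by edgeR), when scaled by library totals alone (−0.19, adjusted p = 0.0309 by edgeR) and with the replicate number as a block (adjusted p = 0.0394 by edgeR).

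Of 8 binding partners of MMPs and TIMPs, all were tested, 4 rose and 2 fell (median 0.13). LCN2, lipocalin 2, which forms a complex with MMP9, rose from 255, 244 and 308 RPKM to 631, 633 and 626 RPKM (log2 fold change 1.23, SE 0.08, adjusted p = 9.77e-07 by edgeR). The endocytic receptor LRP1, which clears MMPs and their complexes, rose by 0.67, the integrin subunit ITGAV by 0.62, and BSG, the EMMPRIN protein known to induce MMPs, by 0.23 (SE 0.05, adjusted p = 0.00346 by edgeR). CD44, which docks MMP9 at the cell surface, was at −0.12 (SE 0.05, adjusted p = 0.0815 by edgeR), and it passed when scaled by library totals alone (−0.17, adjusted p = 0.0154 by edgeR) and with the replicate number as a block (adjusted p = 0.0163 by edgeR). ITGB3 and SDC1 fell by 0.45 and 0.26 on the log2 scale.

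Among 17 matrix and junction substrates, 15 were tested, 8 rose and 5 fell, with a median of 0.58. FN1, fibronectin, rose from 128, 124 and 115 RPKM to 821, 669 and 766 RPKM (log2 fold change 2.62, SE 0.08, adjusted p = 2.86e-08 by edgeR). Among the genes of this list that belong to the anchoring complex of epithelia, COL7A1 rose by 1.90, LAMA3 by 1.18, COL17A1 by 1.09 and LAMB3 by 0.58. COL4A6 and COL4A5 rose by 1.21 and 0.73, whereas COL4A3 and COL4A4 fell by 0.57 and 0.44, and COL4A1 and COL4A2 were at 0.06 and −0.11 without passing. CDH1 (E-cadherin), TNC (tenascin C) and COL1A1 fell by 1.03, 0.87 and 0.50 on the log2 scale. Of 30 ADAM and ADAMTS genes, some of whose proteins TIMP3 also blocks and not all of which encode active proteases, 19 were tested, 3 rose and 8 fell (median −0.08). ADAMTS9 and ADAM8 fell by 0.92 and 0.82 on the log2 scale and ADAMTS1 rose by 0.66, and ADAM17, the sheddase of TNF, fell by 0.25.

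For the regulators known to act on MMP promoters, 14 AP-1 and ETS factors were tested, 6 rose and 5 fell (median 0.22). ETS1 rose by 0.76 and JUN by 0.47, and ETV1 fell by 0.44, a call that was lost without shLuc library 2 or shWDR5 library 2 (adjusted p = 0.0572 and 0.0515 by edgeR). Of 5 NF-kB subunits, 4 rose and none fell (median 0.48), RELB by 0.86, NFKB1 by 0.54, RELA by 0.48 and NFKB2 by 0.48, and REL was at −0.05. Of 9 cytokines and growth factors that induce MMPs, 8 were tested, 3 rose and 2 fell (median −0.09). TNF rose by 2.40 (SE 0.25, adjusted p = 1.90e-05 by edgeR) but stayed below 0.7 RPKM. It had 13, 5 and 8 reads in shLuc and 51, 57 and 52 in shWDR5. Only in shWDR5 did all its libraries reach the filter, so its p-value is no support for a rise. IL1A rose from 59.3, 61.3 and 57.1 RPKM to 111, 126 and 122 RPKM. HBEGF, an EGF receptor ligand, rose by 0.62. TGFB1 fell from 9.42, 9.36 and 8.33 RPKM to 5.91, 5.11 and 5.65 RPKM (log2 fold change −0.70, SE 0.08, adjusted p = 4.03e-05 by edgeR), and AREG fell by 0.72 on the log2 scale. IL1B, EGF and TGFA were at −0.09, −0.18 and −0.08 without passing.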

How the data were processed

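RNA-seq of 6 MCF10DCIS libraries, 3 shLuc and 3 shWDR5, was analysed from the table of read counts per gene that the authors deposited. Per the labels and the submitters' processing notes, the libraries were made with an Illumina poly-A kit and processed with TopHat2 2.1.0, featureCounts and edgeR 3.2.2 on hg19. Strand and multi-mapping settings are not given in the sources used here. The authors' table of fold changes and p-values was not used. Counts were filtered with filterByExpr (minimum count 10), scaled by TMM and tested with edgeR 4.0.16 (R 4.3.3, quasi-likelihood, no covariate), with Benjamini-Hochberg adjustment over all tested genes and a threshold of 0.05. RPKM used the deposited exon lengths and TMM-scaled totals. DESeq2 1.42.0 was an alternative, and the test script was checked on simulated data.

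Counts of replicate pairs differed by more than sampling noise, and all 6 libraries were kept as separate samples. The members, the gene lists and the rule for named genes were chosen with earlier results of these data known. The rule named the 10 members, WDR5, LCN2, CD44, BSG, PLAU, FURIN, TGFB1, RECK, the genes within or beside the chromosome 11 cluster, and up to 3 called genes per list with the largest log2 fold changes. One result that this rule would name is not reported here. Other list genes in the text were chosen after their values were seen.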

Additional observations from a re-analysis of the deposited data

How the results depend on the processing

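The 8 member calls were the same genes under DESeq2's size factors, library totals alone, the DESeq2 Wald test, no filter on low counts and each left-out library, and no member changed direction. The genes were picked on this contrast, so this describes the settings and lends the calls no support. MMP14 passed as the ninth with the replicate number as a block (log2 fold change 0.14, beside 10412 genes called in all). It also passed without shLuc replicate 1 (0.20, beside 8847 genes called in all). Same-numbered libraries did not all deviate together (r = 0.372, 0.0358 and 0.116), and shLuc 2 correlated best with shWDR5 3 (r = 0.210), so the numbers were not taken as pairs. The replicate block moved the genes called from 9112 to 10412 and the list genes called from 63 to 68, and WDR5 was at −1.15 in both fits. Besides MMP14, the genes CD44, FURIN and TMEM123 passed with the block and not without it, and no other named gene changed its call. Under the study's criteria (log2 fold change of at least 0.6 and over 0.5 RPKM besides the adjusted p), 2962 of the 16117 tested genes passed, 1274 higher and 1688 lower. Among them were 4 of the 9 fitted members and 27 of the 89 tested list genes, and nothing is read from either count. The enzyme-to-inhibitor ratio rose 1.88-fold without MMP14, 2.20-fold without TIMP1, 1.16-fold without MMP9 and 1.06-fold without MMP9 and MMP7 (the last 2 settings chosen after seeing the data), and 1.36-fold to 1.42-fold when libraries were left out. Scaling by library totals alone moved the share of calls that were higher from 47.1% to 40.3%. RECK ran from −0.0529 to 0.0027 when libraries were left out, above 0 without shLuc replicate 3 only. The cause of these changes was not tested. The reads limit MMP3, MMP8, MMP13 and MMP19, each under 50 reads in every library.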

Other observations

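Antisense RNAs of the family, chosen after their values were seen, also differed between the groups. MMP24-AS1 rose from 8.18, 8.31 and 7.06 RPKM in shLuc to 20.0, 17.4 and 19.2 RPKM in shWDR5 (log2 fold change 1.26, SE 0.09, adjusted p = 1.25e-06 by edgeR), whereas MMP24 itself was at 0.18 (SE 0.20, adjusted p = 0.477 by edgeR). MMP25-AS1 rose by 0.50 (SE 0.10, adjusted p = 0.00193 by edgeR) and MMP25 by 0.80 (SE 0.17, adjusted p = 0.00264 by edgeR). The strand setting of the counting is not given, so reads from exons shared by a gene and its antisense partner cannot be told apart. MMP21 had 0 reads in every shLuc library and 3, 6 and 3 reads in the shWDR5 libraries, and TIMP4 had 1 read in each shLuc library and 0 in each shWDR5 library, both too low for the fit.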
